A study of Mus musculus with 27 samples.

Results

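Klf2, Klf4, Klf5, Myc and Mycn are members of 2 families of transcription factors from which reprogramming cocktails were drawn. They were chosen by symbol, as the genes with at least 1 probe set annotated to that symbol alone, and all 5 were found among 18193 genes measured on the same arrays. The arrays were Affymetrix mouse expression arrays hybridised with RNA of 3 pluripotent lines at days 0, 5 and 11 of differentiation, with 3 biological replicates in each of the 9 groups. R1 cells are embryonic stem cells. The induced pluripotent lines were H9, reprogrammed with 3 factors and called 3F here, and 19BL, reprogrammed with 4 factors and called 4F, and the labels do not name the factors. At day 0 the cells of every line grew with leukemia inhibitory factor (LIF) on feeder cells stopped from dividing with mitomycin. At days 5 and 11 they were embryoid bodies, aggregates that differentiate without a directing factor, in medium with 20% fetal bovine serum and no LIF. Each number of factors is represented by 1 line, so the number of factors and the line cannot be told apart. The feeders were part of the day 0 culture, and the labels do not say that they were removed before RNA was taken.

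Klf2, Klf4 and Klf5 are zinc finger proteins of the Krüppel-like family, which bind GC-rich and CACCC sequences, and in mouse embryonic stem cells they overlap in holding up the naive pluripotent state. Klf4 is a known target of LIF signalling through Stat3, and Klf2 is maintained largely apart from LIF. Myc and Mycn are basic helix-loop-helix leucine zipper proteins that pair with Max on E boxes (CACGTG) and drive genes of ribosome making, metabolism and growth. Klf4 and Myc belong to the classic set of 4 reprogramming factors, in which Klf2 or Klf5 can stand in for Klf4 and Mycn for Myc, and cocktails of 3 factors usually leave Myc out. The arrays measured RNA from all copies of a gene that match the probes, and the part of an introduced copy, if any was active, was not tested.

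Of these genes, 3 have a promoter in the RefSeq table used here (mouse build GRCm38.p6), which lists 250 bases upstream of a gene's start for 32851 promoters. Klf4 and Klf2 are shown because both fell in differentiating R1 and 3F cells while at day 5 Klf2 was higher in 4F than in both, and Mycn because it fell in all 3 lines by day 11. Capitals mark GC boxes (GGGCGG on either strand) and the E box CACGTG, and each sequence runs 5′ to 3′ in the direction of the gene. In Klf4, neighbouring GC boxes in 1 pair share a base.
Klf2 promoter, chr8:72318812-72319061, plus strand: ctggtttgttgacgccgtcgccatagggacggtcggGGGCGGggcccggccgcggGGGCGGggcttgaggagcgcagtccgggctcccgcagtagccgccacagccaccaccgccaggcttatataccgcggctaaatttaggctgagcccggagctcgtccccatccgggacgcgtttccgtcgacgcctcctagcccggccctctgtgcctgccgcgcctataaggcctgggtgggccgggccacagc
Klf4 promoter, chr4:55532476-55532725, minus strand: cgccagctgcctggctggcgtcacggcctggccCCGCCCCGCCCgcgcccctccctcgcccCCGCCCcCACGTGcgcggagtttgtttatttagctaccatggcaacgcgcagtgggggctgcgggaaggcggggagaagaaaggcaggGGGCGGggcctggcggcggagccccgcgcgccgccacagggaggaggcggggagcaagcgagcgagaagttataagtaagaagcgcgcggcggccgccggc
Mycn promoter, chr12:12941837-12942086, minus strand: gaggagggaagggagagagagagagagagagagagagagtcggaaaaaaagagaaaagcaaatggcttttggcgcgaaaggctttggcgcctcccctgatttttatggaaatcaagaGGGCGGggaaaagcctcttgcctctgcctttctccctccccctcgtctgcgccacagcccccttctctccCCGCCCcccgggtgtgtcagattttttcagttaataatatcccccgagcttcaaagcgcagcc
The Klf4 promoter held 4 GC boxes and 1 E box, and 4.09% of the promoters in the table held at least as many GC boxes and 6.02% an E box. The Klf2 and Mycn promoters each held 2 GC boxes, a number reached by 16.73% of promoters, and no E box. CACCC, searched on both strands, occurred 1 time in Klf2 and in Mycn and 0 times in Klf4, and 52.01% of promoters held it at least 1 time. These matches describe the letters in the window and say nothing of binding. The genes lie at chr8:72319062-72321654 (Klf2), chr4:55527137-55532475 (Klf4), chr14:99298691-99313412 (Klf5), chr15:61985341-61990361 (Myc) and chr12:12936093-12941836 (Mycn).

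Signals are log2 values as deposited, where a difference of 1 is 2-fold, and they compare a gene with itself across groups, not with another gene. A change is called, and described as a rise, a fall or a difference, where limma gave an adjusted p below 0.05 (Benjamini-Hochberg over 18193 genes) and the size reached 2-fold. Errors after ± are standard errors of the limma fit, or SDs over 3 arrays where marked SD. The arrays were alike in their medians (5.91 to 6.1), but the SD over probe sets was 2.48 to 2.61 at day 0 and 2.23 to 2.49 later. The signal of the 3′ controls for Actb and Gapdh over that of their 5′ controls (the 3′ to 5′ gap, in log2 units), which bears on RNA quality, was largest in 4F at day 11 (2.69 ± 0.23, SD, n = 3), against 1.09 to 1.94 for the means of the other groups. All 7 pluripotent marker genes fell from day 0 to day 5 in R1 and in 3F, where 8.1% and 7.4% of all genes were called lower. In 4F, 4 of 7 fell (1 to 5 in alternative fits with the 2-fold limit), where 4.82% of all genes were called lower. The mean log2 signal of the 7 at day 5 was 8.59 to 10.51 in R1, 9.1 to 9.92 in 3F and 11.51 to 12.29 in 4F. The mean of 12 fibroblast and feeder markers at day 0 was 9.2 to 10.01 in R1, 10.69 to 11.54 in 3F and 9.64 to 10.74 in 4F, and 6.17 to 7.96 in all 3 lines at day 5. In these bulk samples, fewer cells of a type and less RNA per cell cannot be told apart.

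From day 0 to day 5, Klf2, Klf4, Klf5 and Mycn fell and Myc rose in R1 and in 3F, whereas in 4F only Klf4 and Klf5 were called. In R1, 5 of the 5 genes were called, where 14.7% of all genes were (6.62% higher and 8.1% lower). In 3F, 5 of 5 were called against 12.4% of all genes (5.04% higher and 7.4% lower), and in 4F, 2 of 5 against 7.07% (4.82% lower). By day 11, all 5 lay below day 0 in 3F (23.6% of all genes were called, 16% lower) and in 4F (20.8%, 14.1% lower), and 4 in R1 (23.6%, 12.2% lower). In R1 the remaining gene, Myc, was lower by less than 2-fold. From day 5 to day 11, 2 genes fell in R1 (11.6% of all genes were called, 4.53% lower), 1 rose and 2 fell in 3F (16.9%, 6.16% higher and 10.8% lower), and 4 fell in 4F (15.8%, 9.16% lower). The median change of the 5 genes from day 0 to day 11 was -2.15 in R1, -1.96 in 3F and -2.63 in 4F on the log2 scale, beside medians of all genes of -0.04, 0.01 and -0.11.

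Between lines, the 5 genes differed mainly at day 5, and in 4F. At day 5, 4 of 5 were called between 4F and R1, 3 higher and 1 lower in 4F, where 5.45% of all genes were (2.31% higher and 3.14% lower). Between 4F and 3F, 3 of 5 were called, 2 higher and 1 lower, where 7.48% were (2.91% higher and 4.57% lower). The arrays of 4F at day 5 did not overlap with those of R1 or of 3F for any of the 5 genes, as for 35% and 45.4% of all genes. At day 0, 1 of 5 was called between 4F and R1 (1.12% of all genes) and 1 between 4F and 3F (1.98%), in both cases Klf4. No gene of the 5 was called between 3F and R1 at day 0 (3.09% of all genes), day 5 (0.374%) or day 11 (1.02%), nor between 4F and R1 (8.31%) or 4F and 3F (10%) at day 11. In the tests of whether the change from day 0 to day 5 differed between lines, 2 of 5 genes were called for 4F against R1 (3.64% of all genes) and for 4F against 3F (3.47%), in both cases Klf2 and Myc, and 0 for 3F against R1 (0.374%). For the change from day 0 to day 11, 0 of 5 were called for 3F against R1 (1.5%), 4F against R1 (9.5%) and 4F against 3F (6.41%). On the brightest probe sets the differences between lines at day 11 lay between -0.52 and 0.86 on the log2 scale and none was called. Another probe set of Klf5, described with that gene, was called higher in 4F, and with the 3′ to 5′ gap as a covariate Klf4 in 4F against R1 (1.45, adjusted p 0.0209) and Myc in 4F against 3F (1.06, adjusted p 0.0217) were called. The background shares between lines moved with single arrays: the 562 genes called between 3F and R1 at day 0 were 193 to 1179 with 1 array left out, and the 272 called for the change of 3F against R1 to day 11 were 101 to 1264.

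**Figure D1:**
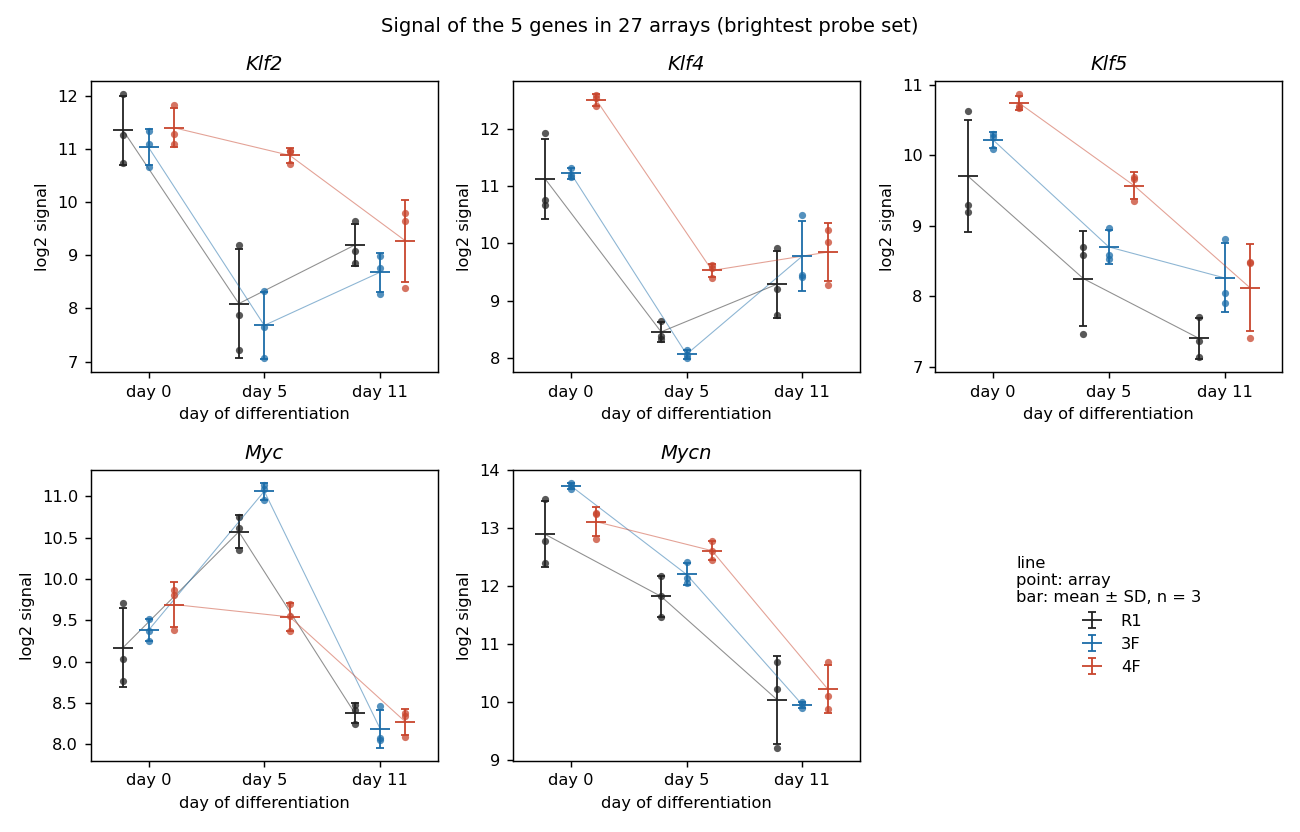
Log2 signal of Klf2, Klf4, Klf5, Myc and Mycn (brightest probe set of each) in the 27 arrays by day of differentiation, with R1 in black, 3F in blue and 4F in red; points are arrays and bars are the mean ± SD of 3 arrays. In 4F at day 5, Klf2 stayed at 10.72 to 10.97 and Myc at 9.37 to 9.70, while in R1 and 3F Klf2 lay at 7.07 to 9.20 and Myc at 10.35 to 11.14.

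Klf2 fell in R1 and 3F by day 5, and in 4F its day 5 level was not called different from day 0. Its single probe set gave log2 signals of 12.03, 11.26 and 10.74 in the 3 R1 arrays at day 0, 9.20, 7.87 and 7.21 at day 5, and 9.08, 8.86 and 9.64 at day 11. In 3F the signals were 11.10, 11.33 and 10.66 at day 0, 8.32, 7.65 and 7.07 at day 5, and 8.76, 8.28 and 8.99 at day 11. In these lines every day 5 array lay below every day 0 array. In 4F the signals were 11.29, 11.82 and 11.10 at day 0, 10.97, 10.96 and 10.72 at day 5, and 8.39, 9.79 and 9.64 at day 11. The 4F arrays of day 5 were thus just below those of day 0 and above every day 5 array of the other lines, the highest of which was 9.20.

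The fall of Klf2 from day 0 to day 5 was 3.25 ± 0.43 on the log2 scale in R1 (adjusted p 4.47e-06), that is 9.52-fold, and 10.2-fold in 3F (adjusted p 3.04e-06). In 4F the difference was -0.52 ± 0.43 (adjusted p 0.442) and was not called. The test of the difference between these changes gave 2.73 ± 0.61 for 4F against R1 (adjusted p 0.0121) and 2.83 ± 0.61 for 4F against 3F (adjusted p 0.00844). At day 5 itself Klf2 was 6.92-fold higher in 4F than in R1 (adjusted p 0.000185) and 9.2-fold higher than in 3F (adjusted p 2.1e-05). From day 5 to day 11 Klf2 then fell by 1.61 ± 0.43 in 4F (adjusted p 0.00491), while in R1 and 3F it was higher by 1.10 ± 0.43 (adjusted p 0.0642) and 0.99 ± 0.43 (adjusted p 0.0752), which did not pass. Without replicate 1 of R1 at day 5, whose Klf2 signal was the highest of its group, the R1 value was 1.65 (adjusted p 0.00614), and without replicate 1 of 3F at day 5 the 3F value was 1.31 (adjusted p 0.0363). Other scalings called both rises, at 1.11 and 1.14 with quantile normalization (adjusted p 0.0495 and 0.0362) and 1.19 and 1.36 with cyclic loess (adjusted p 0.0343 and 0.0132). In R1 the rise was also called with dim genes left out (adjusted p 0.0458) and with the covariate (adjusted p 0.0467). By day 11 the fall from day 0 was 2.15 in R1, 2.35 in 3F and 2.13 in 4F, each ± 0.43.

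In order of group means, Klf2 was highest in the 3 day 0 groups and 4F at day 5 (11.40 to 10.88), whose neighbouring ranges overlapped. After a gap came the day 11 groups (9.27 to 8.68) and then R1 and 3F at day 5 (8.09 and 7.68). The ranges of neighbours among these lower groups overlapped too. The mean of the pluripotent markers was also higher in 4F at day 5 than in the other lines. From day 5 to day 11 this mean went down in R1 (9.59 to 7.78) and 3F (9.37 to 6.98), where Klf2 did not fall. At day 11 it was still higher in 4F (10.2), where Klf2 was not called different from R1 or 3F. The part of these markers in the Klf2 difference was not tested.

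Klf4, the member of the classic cocktail, fell in all 3 lines by day 5 and started from the highest level in 4F. The brightest of its 2 probe sets gave 11.92, 10.67 and 10.76 in R1 at day 0, 8.65, 8.34 and 8.39 at day 5, and 9.21, 8.76 and 9.92 at day 11. In 3F it gave 11.19, 11.32 and 11.16 at day 0, 8.05, 8.0 and 8.15 at day 5, and 9.41, 9.45 and 10.49 at day 11. In 4F it gave 12.53, 12.59 and 12.39 at day 0, 9.58, 9.40 and 9.62 at day 5, and 9.28, 10.03 and 10.23 at day 11. In each line the day 0 arrays lay above all later ones, and in R1 and 3F the day 11 arrays lay above those of day 5.

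By day 5 Klf4 fell by 2.66 ± 0.31 in R1 (adjusted p 9.78e-07), 3.16 ± 0.31 in 3F (adjusted p 7.85e-08) and 2.97 ± 0.31 in 4F (adjusted p 5.9e-07), between 6.33-fold and 8.92-fold. The 3 falls were not shown to differ (adjusted p 0.801 to 0.941). Klf4 and Klf2 thus parted in 4F: Klf4 fell while Klf2 did not pass the test. From day 5 to day 11 Klf4 rose 3.29-fold in 3F (adjusted p 0.000124). It was 0.84 ± 0.31 higher in R1 (adjusted p 0.0497, under 2-fold, and 1.10 with adjusted p 0.0184 without replicate 2 of R1 at day 11) and 0.31 ± 0.31 higher in 4F (adjusted p 0.46). At day 11 Klf4 was still below day 0, by 1.83 in R1, 1.44 in 3F and 2.66 in 4F (each ± 0.31, adjusted p 4.11e-05, 0.000529 and 3.85e-07). In 3F this value lay just under 2-fold with other scalings of the arrays (-0.98 with quantile normalization and -0.99 with cyclic loess).

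At day 0 Klf4 was higher in 4F than in R1 by 1.38 ± 0.31 (adjusted p 0.017) and than in 3F by 1.28 ± 0.31 (adjusted p 0.0189), 2.61-fold and 2.43-fold. Both calls rested on single arrays: against R1 the call was lost without replicate 2 or 3 of R1 or replicate 1 or 2 of 4F (adjusted p 0.072 to 0.13). Against 3F it was lost without replicate 1 or 3 of 3F or replicate 2 or 3 of 4F (adjusted p 0.0514 to 0.0893). In these fits the difference was 1.16 to 1.37 against R1 and 1.24 to 1.34 against 3F. The call against R1 was also lost with only the 6 arrays compared (adjusted p 0.107). At day 5 Klf4 was 1.47 ± 0.31 higher in 4F than in 3F (adjusted p 0.0019). Against R1 it was 1.08 ± 0.31 higher (adjusted p 0.0245), a call that ended without replicate 2 or 3 of R1 or any 1 array of 4F at day 5 (adjusted p 0.054 to 0.0892). The dimmer probe set of Klf4 gave 10.01, 10.37 and 10.17 in 4F at day 0, 9.51, 8.24 and 8.10 in R1 and 8.95, 8.89 and 8.86 in 3F. It was called higher in 4F at day 0 too, by 1.57 ± 0.29 against R1 (adjusted p 0.00446) and 1.28 ± 0.29 against 3F (adjusted p 0.015). At day 5 it was 0.53 and 0.37 higher in 4F (adjusted p 0.368 and 0.552), which was not called. Its 4F arrays at day 5 (7.42 to 7.72) still lay above those of R1 (6.93 to 7.09) and 3F (7.09 to 7.24). The direction at day 5 was thus shared by both probe sets, and the call came from the brighter alone. The probe sets also disagreed on 3F from day 5 to day 11, with 1.72 on the brighter and -0.12 (adjusted p 0.811) on the dimmer.

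In order of means Klf4 was highest in 4F at day 0 (12.50), then in 3F and R1 at day 0 (11.22 and 11.12, overlapping). The groups 4F at day 11, 3F at day 11, 4F at day 5 and R1 at day 11 (9.85 to 9.29) overlapped with their neighbours. R1 and 3F at day 5 were lowest (8.46 and 8.07) and did not overlap.

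Klf5, the family member that is also expressed in many epithelia, fell in all 3 lines by day 5 on its brightest probe set, and in 4F it fell again by day 11 on that probe set. The brightest of its 3 probe sets gave 10.63, 9.30 and 9.19 in R1 at day 0, 8.70, 8.58 and 7.47 at day 5, and 7.13, 7.36 and 7.71 at day 11. In 3F it gave 10.30, 10.26 and 10.09 at day 0, 8.97, 8.53 and 8.58 at day 5, and 8.05, 7.90 and 8.82 at day 11. In 4F it gave 10.68, 10.87 and 10.71 at day 0, 9.35, 9.67 and 9.69 at day 5, and 7.40, 8.47 and 8.49 at day 11. Day 0 lay above day 5 in every line, and day 5 and day 11 overlapped in R1 and 3F but not in 4F.

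By day 5 Klf5 fell by 1.46 ± 0.35 in R1 (adjusted p 0.00215), 1.52 ± 0.35 in 3F (adjusted p 0.00179) and 1.18 ± 0.35 in 4F (adjusted p 0.0174). The R1 value was -0.99 without replicate 1 of day 0, whose signal of 10.63 stood well above the other 2, and the 4F call ended without replicate 2 of day 0 (adjusted p 0.0603) or replicate 1 of day 5 (adjusted p 0.0673). With the mean of the 3 probe sets, which takes in a flat one described below, the values were -0.94, -0.71 and -0.83. The second brightest probe set fell by day 5 in R1 and 4F (-1.59 and -1.57, adjusted p 0.000717 and 0.00169) and was not called in 3F (-0.73, adjusted p 0.124). By day 11 Klf5 fell 4.95-fold from day 0 in R1, 3.89-fold in 3F and 6.19-fold in 4F (adjusted p 9.46e-06, 6.48e-05 and 1.97e-06). The falls in 3F and 4F were not seen on the second brightest probe set, which gave -0.49 (adjusted p 0.247) and 0.38 (adjusted p 0.382), while in R1 it fell by 1.97 (adjusted p 4.18e-05). With the mean over probe sets the values were -0.77 in 3F and -0.68 in 4F, under the 2-fold limit. From day 5 to day 11 it fell by 1.45 ± 0.35 in 4F (adjusted p 0.00214). The difference was -0.85 ± 0.35 in R1 (adjusted p 0.0762, and -1.24 with adjusted p 0.0111 without replicate 3 of R1 at day 5) and -0.44 ± 0.35 in 3F (adjusted p 0.346). At day 5 Klf5 was 1.32 ± 0.35 higher in 4F than in R1 on the brightest probe set (adjusted p 0.0138). The call was lost without replicate 3 of R1 (0.93, adjusted p 0.128) or replicate 2 of 4F (1.27, adjusted p 0.0647). The difference was not seen on the second brightest probe set (-0.18, adjusted p 0.912), and the mean over probe sets gave 0.4 (adjusted p 0.0631). Against 3F the brightest probe set was 0.87 ± 0.35 higher in 4F (adjusted p 0.0952). At day 0 the value for 4F against R1 was 1.05 ± 0.35 (adjusted p 0.148), and 1.51 (adjusted p 0.00808) without replicate 1 of R1.

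The order of means for Klf5 ran from 4F at day 0 (10.75), which overlapped no other group, through 3F and R1 at day 0 and 4F at day 5 (10.22 to 9.57, neighbours overlapping) to the remaining groups at 8.70 to 7.40, whose neighbours overlapped. The second brightest probe set of Klf5 did not follow the first at day 11 in 4F, where it gave 8.50, 8.45 and 6.99 after 6.26, 6.00 and 5.81 at day 5. On this probe set Klf5 rose by 1.95 ± 0.32 in 4F from day 5 to day 11 (adjusted p 6.13e-05), opposite to the fall on the brightest. It was also 2.15 ± 0.32 higher in 4F than in R1 at day 11 (adjusted p 6.8e-05) and 1.57 ± 0.32 higher than in 3F (adjusted p 0.000949). The 4F group at day 11 was also the one with the widest gap between 3′ and 5′ control probe sets, and the part of RNA quality in this disagreement was not tested. With the gap as a covariate, the fall on the brightest probe set was -0.71 (adjusted p 0.443). The dimmest probe set stayed between 5.24 and 5.82 in all 27 arrays, near the array medians, and reported no change.

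**Figure D2:**
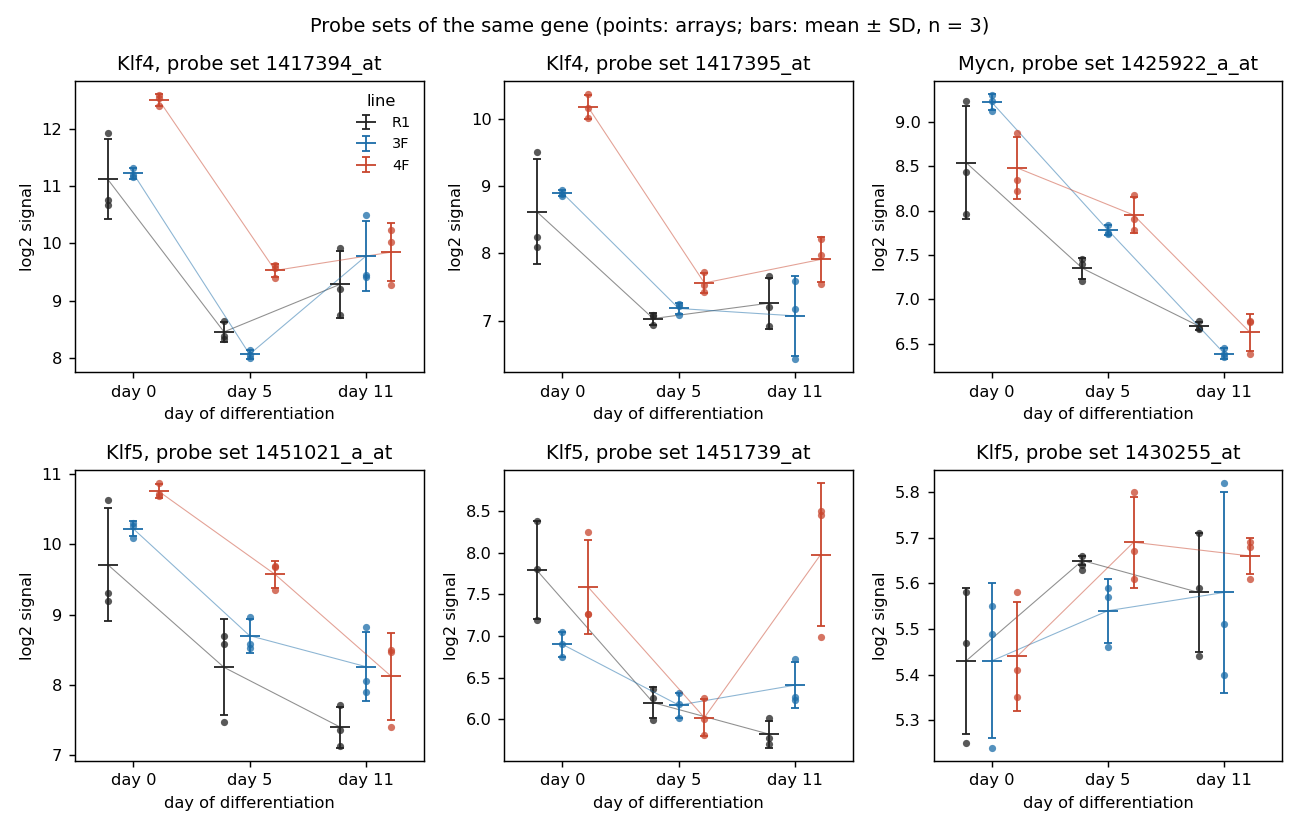
Log2 signal by day of 6 probe sets of Klf4, Mycn and Klf5, 1 panel each, with arrays as points and the mean ± SD of 3 arrays as bars (R1 black, 3F blue, 4F red; each panel has its own axis). The brightest and the second brightest Klf5 probe sets run in opposite directions in 4F from day 5 to day 11 (-1.45 and 1.95 log2 units), and the dimmest stays between 5.24 and 5.82.

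Myc was the only one of the 5 genes that rose at day 5, in R1 and in 3F but not in 4F. Its single probe set gave 9.71, 9.03 and 8.77 in R1 at day 0, 10.62, 10.35 and 10.75 at day 5, and 8.41, 8.25 and 8.47 at day 11. In 3F it gave 9.51, 9.37 and 9.25 at day 0, 10.95, 11.09 and 11.14 at day 5, and 8.05, 8.08 and 8.46 at day 11. In 4F it gave 9.87, 9.81 and 9.38 at day 0, 9.37, 9.55 and 9.70 at day 5, and 8.09, 8.34 and 8.38 at day 11. The day 5 arrays were the highest of their line in R1 and 3F and overlapped with day 0 in 4F, and day 11 was lowest in each line.

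The rise of Myc from day 0 to day 5 was 2.64-fold in R1 (1.40 ± 0.19, adjusted p 4.68e-06) and 3.21-fold in 3F (1.68 ± 0.19, adjusted p 4.03e-07). In 4F the difference was -0.15 ± 0.19 (adjusted p 0.641). The changes differed by -1.55 ± 0.26 between 4F and R1 (adjusted p 0.00194) and by -1.83 ± 0.26 between 4F and 3F (adjusted p 0.000376). At day 5 Myc was lower in 4F than in 3F by 1.52 ± 0.19 on the log2 scale (adjusted p 7.8e-06, 2.87-fold). Against R1 it was 2.04-fold lower (adjusted p 0.000777), a value that lay at the 2-fold limit and under it without replicate 3 of R1 or replicate 1 of 4F at day 5 (-0.94 in each case). From day 5 to day 11 Myc fell in all 3 lines, 4.57-fold in R1, 7.29-fold in 3F and 2.41-fold in 4F (adjusted p 1.5e-08, 2.37e-10 and 1.42e-05). The 4F fall was -0.35 (adjusted p 0.348) with the 3′ to 5′ gap as a covariate. Day 11 was below day 0 by 1.73-fold in R1, which was under the 2-fold limit (adjusted p 0.00123), by 2.27-fold in 3F and by 2.67-fold in 4F (adjusted p 1.48e-05 and 1.76e-06). The 3F value also lay under 2-fold with quantile normalization (-0.99), cyclic loess (-0.86) and the covariate (-0.79). At day 0 Myc did not differ detectably between lines, with 4F against R1 at 0.52 ± 0.19 (adjusted p 0.191) and 4F against 3F at 0.31 ± 0.19 (adjusted p 0.485).

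In order of means, 3F and R1 at day 5 stood highest (11.06 and 10.57) and overlapped neither with each other nor with any other group. The groups 4F at day 0, 4F at day 5, 3F at day 0 and R1 at day 0 followed (9.69 to 9.17, neighbours overlapping), and the 3 day 11 groups were lowest (8.38 to 8.19, overlapping).

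Mycn, the family member best known from neural and stem cells, fell by day 11 in all 3 lines. Its fall by day 5 was called in R1 and 3F and not in 4F, but these changes were not shown to differ between lines. The brightest of its 3 probe sets gave 13.51, 12.78 and 12.39 in R1 at day 0, 12.17, 11.83 and 11.47 at day 5, and 10.69, 10.23 and 9.21 at day 11. In 3F it gave 13.67, 13.72 and 13.78 at day 0, 12.42, 12.05 and 12.14 at day 5, and 9.90, 9.99 and 9.96 at day 11. In 4F it gave 13.25, 13.26 and 12.82 at day 0, 12.61, 12.78 and 12.45 at day 5, and 9.88, 10.68 and 10.10 at day 11. The 3 days did not overlap in any line.

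By day 5 Mycn fell by 1.52 ± 0.29 in 3F (adjusted p 0.000314, 2.88-fold) and by 1.07 ± 0.29 in R1 (adjusted p 0.0059). The R1 value was -0.76 (adjusted p 0.0518) without replicate 1 of day 0 and -0.89 without replicate 3 of day 5, and -0.54 (adjusted p 0.157) with quantile normalization. In 4F the difference was -0.50 ± 0.29 (adjusted p 0.252). The 4F change differed by 0.57 ± 0.41 from the R1 change (adjusted p 0.534) and by 1.03 ± 0.41 from the 3F change (adjusted p 0.204), and neither was called. With only the 12 arrays compared in the fit, the difference from the 3F change had an adjusted p of 0.00683 and was called. That result thus depended on which arrays gave the spread. From day 5 to day 11 Mycn fell 3.44-fold in R1, 4.76-fold in 3F and 5.27-fold in 4F (adjusted p 7e-05, 2.26e-06 and 1.56e-06). The R1 value was under 2-fold with the mean over probe sets (-0.83) and on the dimmest probe set (-0.65, adjusted p 0.0329). On that probe set Mycn fell by 1.38 in 3F and 1.32 in 4F. The fall from day 0 to day 11, 13.7-fold in 3F, 7.22-fold in R1 and 7.43-fold in 4F, kept its call in each line under every alternative tried. At day 0 Mycn in 3F was 0.83 ± 0.29 above R1 (adjusted p 0.0844), with no overlap between the arrays, and 1.14 above it (adjusted p 0.0117) without replicate 1 of R1.

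In order of means Mycn ran from day 0 (13.73 to 12.89) over day 5 (12.61 to 11.82) to day 11 (10.22 to 9.95). Among neighbours in this order, the 3 day 11 groups overlapped, as did 3F and R1 at day 5, 4F and R1 at day 0, and R1 at day 0 with 4F at day 5. The dimmest of the 3 probe sets gave falls of 1.19 to 1.44 from day 0 to day 5 in R1 and 3F (adjusted p 0.000167 and 2.3e-05) and a difference of -0.53 ± 0.21 in 4F (adjusted p 0.0989). By day 11 it fell by 1.84 in R1, 2.82 in 3F and 1.85 in 4F (each ± 0.21). The second brightest probe set lay between 7.22 and 8.47 in all arrays and was called in no comparison.

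**Figure D3:**
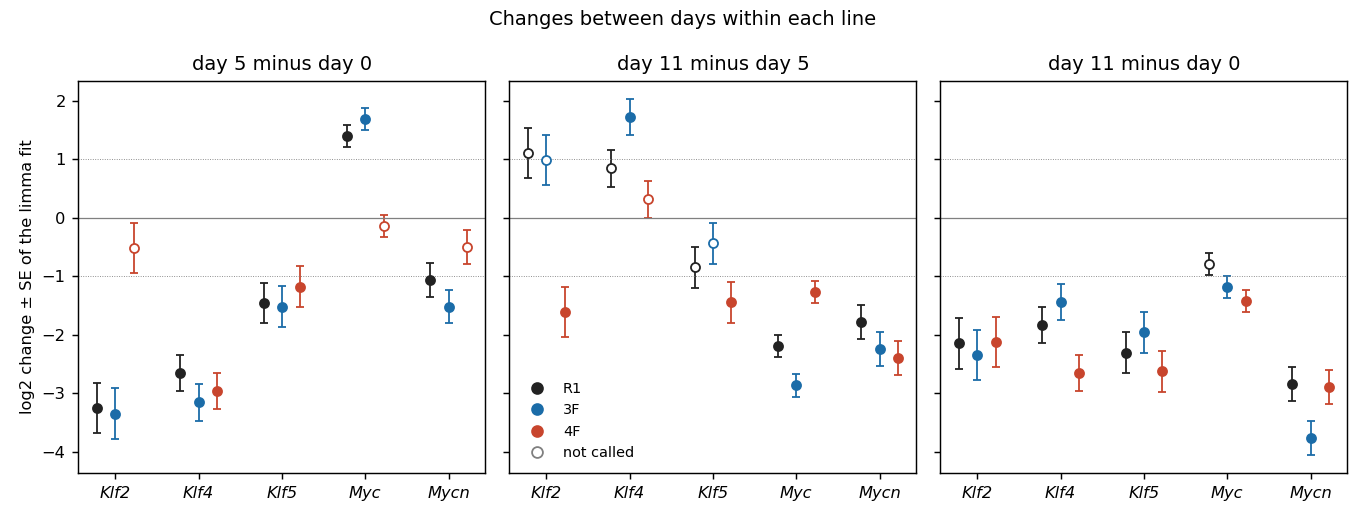
Log2 change ± standard error of the limma fit between 2 days for Klf2, Klf4, Klf5, Myc and Mycn in R1 (black), 3F (blue) and 4F (red); filled points are called, open points are not, and dotted lines mark 2-fold. From day 0 to day 5 Klf2 stands at -3.25 and -3.35 in R1 and 3F but at -0.52 in 4F, and Myc at 1.40 and 1.68 but at -0.15 in 4F, while Klf4 lies at -2.66 to -3.16 in all 3 lines.

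In 4F at day 11 the calls against day 0 of Klf2, Klf4, Klf5 and Myc were lost when the 3′ to 5′ gap entered the model. With this covariate their values were -1.41, -1.0, -1.69 and -0.23 (adjusted p 0.314, 0.226, 0.107 and 0.643), while Mycn kept its call. In 4F from day 5 to day 11, the covariate also ended the calls of Klf2 (-1.05, adjusted p 0.363), Klf5 and Myc, and Klf4 was called higher (1.6, adjusted p 0.0174). The gap was widest in that group, so the covariate and the group cannot be told apart there.

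Over the 9 group means, Pearson's r was 0.87 between Klf2 and Klf4, 0.79 between Klf2 and Klf5, and 0.76 between Klf4 and Klf5. Mycn followed Klf5 most closely (0.89) and was further from Klf2 (0.61) and Klf4 (0.47). Myc stood apart from the Klf genes, at -0.23 with Klf2, -0.31 with Klf4 and 0.28 with Klf5, and was at 0.58 with Mycn. The points are the same 9 groups of arrays for each pair, and days of differentiation set much of their order, so these values are a description.

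The genes with the pattern most like each member over the 9 group means were taken among 9063 genes whose means spanned at least 1 log2 unit. Ramp3, a receptor activity-modifying protein, Acacb, a mitochondrial acetyl-CoA carboxylase, and Grhl3, a grainyhead-like transcription factor, were most like Klf2 (r 0.978, 0.976 and 0.974). Like Klf2, Ramp3 had a mean in 4F at day 5 (8.95 ± 0.72, SD, n = 3) nearer to day 0 (9.55 ± 0.17) than to R1 and 3F at day 5 (7.11 ± 0.52 and 6.61 ± 0.34). Aff1, a subunit of elongation complexes, Ddx58, the RNA sensor RIG-I, and Kat6b, a histone acetyltransferase, were most like Klf4 (0.981, 0.966 and 0.961). Slc12a8, Zfp532 and Col5a3 were most like Klf5 (0.989, 0.984 and 0.977). The group means of Slc12a8 ran from 4.84 to 6.02, no higher than the array medians (5.91 to 6.1), and those of Col5a3 from 5.74 to 7. Both were thus dim. Zbed4, Dgat2, an enzyme of triglyceride synthesis, and Xxylt1 were most like Myc (0.987, 0.976 and 0.974). Zbed4 peaked at day 5 in R1 and 3F (8.89 ± 0.16 and 9.16 ± 0.09, SD, n = 3) and not in 4F (8.61 ± 0.03 after 8.58 ± 0.13 at day 0). Hirip3, a histone chaperone, Ddx21, an RNA helicase of the nucleolus, and Tmem41a were most like Mycn (0.996, 0.995 and 0.994). Among so many genes, high values of r over 9 points arise readily.

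Among the other Klf genes, 13 of 14 listed were measured. Of all genes, 14.7% were called from day 0 to day 5 in R1, 12.4% in 3F and 7.07% in 4F. Ranges in brackets give the count under the alternatives with the 2-fold limit. By day 5, 1 rose and 1 fell in R1 (0 to 3 and 1 to 2), 1 rose and 2 fell in 3F (1 and 1 to 2), and 1 rose and 2 fell in 4F (1 and 0 to 2). The riser was Klf15, a regulator of metabolism, at 1.26 in R1 (adjusted p 0.0101, lost without replicate 1 of R1 at day 5), 2.16 in 3F (adjusted p 9.79e-05) and 1.71 in 4F (adjusted p 0.00191). It fell again by day 11, by 2.21, 1.75 and 2.35 (adjusted p 9.32e-05, 0.000608 and 3.09e-05). Klf9, a hormone-responsive member, fell by 2.01 in R1 and 2.94 in 3F by day 5 (adjusted p 0.00103 and 2.26e-05), and its value in 4F, -1.28 (adjusted p 0.0416), was lost without any 1 of the 6 arrays. Klf3, a repressor, fell by 1.37 in 3F and 1.38 in 4F (adjusted p 4.65e-05 and 0.000106), both calls lost with the mean of its probe sets. At day 5 Klf6, an early response member, was lower in 4F than in R1 by 2.10 (adjusted p 2e-07) and than in 3F by 2.07 (adjusted p 3.28e-08), and this kept its call in every fit. Klf14 rose by day 11 by 2.25 in R1 and 2.54 in 3F (adjusted p 3.12e-06 and 5.36e-07) and was not called in 4F.

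Of the Myc and Max network genes, 12 of 12 were measured. By day 5, 3 rose in R1 (2 to 3), 1 in 3F (1 to 2) and 1 in 4F (0 to 1), and 0 fell in any line. The share of all genes called higher was 6.62% in R1 and 5.04% in 3F, and in 4F 7.07% were called in either direction. The counts in 3F and 4F lay near these shares. Mxd4, which pairs with Max and opposes Myc, rose by 2.05 in R1 (adjusted p 1.7e-05). It was lower in 4F than in R1 at day 5 by 2.02 (adjusted p 0.000142) and than in 3F by 1.58 (adjusted p 0.000832), both calls lost with the mean of its probe sets. Mlxip, a glucose-sensing partner of Mlx, rose by 1.28 in R1 and 1.17 in 3F (adjusted p 0.000226 and 0.000651). Mycl, another Myc family gene, rose by 2.0 in 4F (adjusted p 1.02e-05), in which Myc did not rise. In R1 it rose by 1.16 (adjusted p 0.00119, lost without replicate 2 of day 5), and from day 5 to day 11 it fell by 1.62 in R1, 1.60 in 3F and 1.96 in 4F (adjusted p 5.62e-05, 3.54e-05 and 4.33e-06). With the mean of the probe sets of Mycl each of these calls was lost. Max itself, the shared partner, fell from day 5 to day 11 by 1.0 in 3F and 1.07 in 4F (adjusted p 0.000315 and 0.000191), calls at the 2-fold limit that were lost with cyclic loess and without single arrays (3F at day 5 replicates 1 and 2, 3F at day 11 replicate 1, and 4F at day 11 replicate 2).

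All 16 listed genes of ribosome making and metabolism known as Myc targets were measured. From day 0 to day 5 none of them rose in any line, and 4 fell in R1 (1 to 8), 2 in 3F (2) and 1 in 4F (0 to 1). Over all genes, 8.1%, 7.4% and 4.82% were called lower. Myc rose in R1 and 3F over the same interval, and the median change of the list was -0.87 in R1, -0.70 in 3F and -0.59 in 4F beside medians of all genes of -0.02, 0 and 0.02. From day 0 to day 11, 12.2% of all genes were called lower in R1, 16% in 3F and 14.1% in 4F. By day 11, when Myc and Mycn were at their lowest, 13 of the list fell in R1 (11 to 15), 15 in 3F (10 to 15) and 14 in 4F (9 to 14), with medians of -1.71, -2.02 and -2.16. The largest of these falls were in Nop58, a ribosome assembly factor, by 2.99 in R1 and 3.69 in 3F, Nolc1, a nucleolar chaperone, by 3.53 in 3F and 3.45 in 4F, and Ddx21 by 3.68 in 3F. Polr1b, a subunit of RNA polymerase I, fell by 2.27 in R1, 2.87 in 3F and 2.65 in 4F (adjusted p 7.38e-09, 2.44e-10 and 1.36e-09). The mean log2 signal of the list was 12.84 ± 0.32, 12.05 ± 0.10 and 11.15 ± 0.24 (SD, n = 3) in R1 at days 0, 5 and 11. It was 13.05 ± 0.02, 12.34 ± 0.04 and 10.86 ± 0.28 in 3F and 13.03 ± 0.11, 12.51 ± 0.08 and 11.14 ± 0.20 in 4F. The mean level of the list was thus lower at day 5 than at day 0 in every line. Over this interval Mycn fell in R1 and 3F and was not called in 4F. The part of Myc or Mycn in the level of the list was not tested. Between lines at day 5, no member of the list was called between 4F and R1, where 5.45% of all genes were. Only Nop58 was called between 4F and 3F (1.33, adjusted p 0.00182), where 7.48% were. These counts lay near the shares of all genes. The list medians were 0.40 against R1 and 0.17 against 3F, beside 0.03 for all genes in each.

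**Figure D4:**
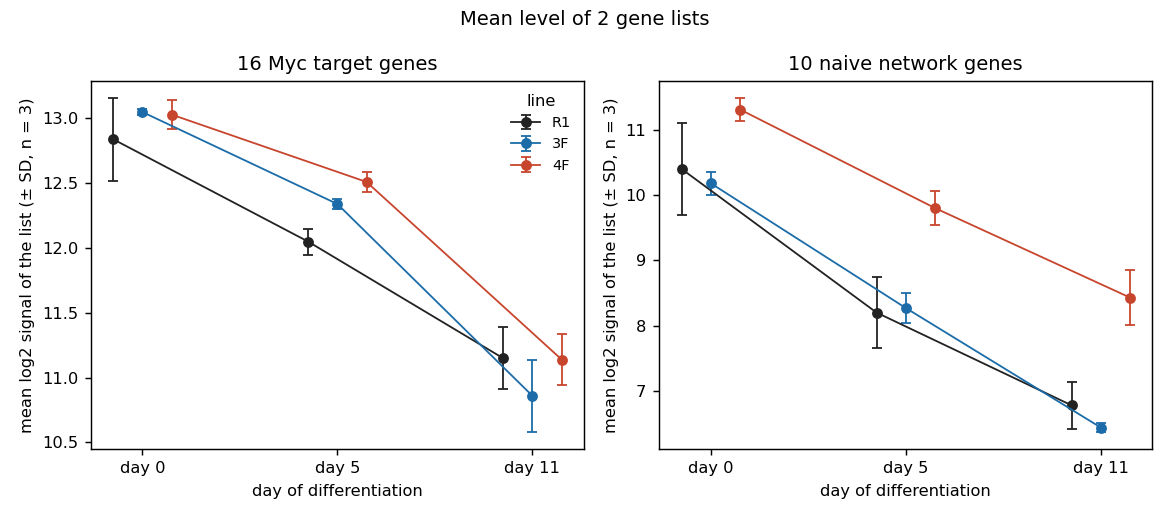
Mean log2 signal of 16 Myc target genes (left) and of 10 naive network genes (right) by day, as the mean ± SD of 3 arrays in R1 (black), 3F (blue) and 4F (red). Myc targets go down from day 0 to day 5 in all 3 lines (R1 12.84 to 12.05, 3F 13.05 to 12.34, 4F 13.03 to 12.51), and the naive network genes are higher in 4F at days 5 and 11.

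All 10 listed partners of the Klf genes in the naive network were measured. By day 5, 7 fell in R1 (6 to 8), 6 in 3F (6 to 7) and 9 in 4F (5 to 9), where 8.1%, 7.4% and 4.82% of all genes were called lower. Tbx3 rose by 1.52 in R1 (adjusted p 0.015, lost without replicate 2 or 3 of R1 at day 0 and with the mean of its probe sets) and by 2.95 in 3F (adjusted p 4.78e-05). Zfp42 fell by 4.81 in R1 and 5.43 in 3F and by 1.84 in 4F (adjusted p 9.81e-08, 1.36e-08 and 0.00684, the last lost with quantile normalization), and the change differed by 2.97 between 4F and R1 (adjusted p 0.0127) and by 3.59 between 4F and 3F (adjusted p 0.00279). Tcl1, a co-activator of Akt, fell by 4.22, 4.00 and 1.76 (adjusted p 5.35e-08, 8.99e-08 and 0.00265). At day 5, 6 of the 10 were higher in 4F than in R1 (6 to 7) and 6 than in 3F (5 to 7), among them Zfp42 (3.26 and 4.05), Tcl1 (3.38 and 3.67) and Nr5a2, an orphan nuclear receptor (2.37 and 3.08), with adjusted p of 2.1e-05 to 0.000587 for Nr5a2. Among all genes at day 5, 2.31% were called higher in 4F than in R1 and 2.91% than in 3F. Tbx3 was lower in 4F than in 3F by 2.19 (adjusted p 0.00227), a value not called with only the 6 arrays compared. At day 0, 6 of 10 were higher in 4F than in 3F, but the count ran from 1 to 7, and 2 were higher than in R1 (1 to 7), so the number of partners that moved with Klf4 at day 0 was not settled by these arrays. The shares of all genes called in either direction were 1.98% and 1.12%.

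Of 10 genes of the LIF and Stat3 pathway, which keeps Klf4 on in naive cells, 4 fell in R1 from day 0 to day 5 (2 to 4), 4 in 3F (1 to 4) and 5 in 4F (4 to 5). Over the same interval 8.1%, 7.4% and 4.82% of all genes were called lower. Socs3, a feedback inhibitor and direct Stat3 target, fell by 1.79 in R1, 2.04 in 3F and 2.47 in 4F (adjusted p 1e-06, 1.46e-07 and 3.19e-08). Klf4 also fell in all 3 lines, and the part of LIF signalling in its fall was not tested. Pim1, a kinase under Stat3, fell by 1.76, 1.43 and 1.64 (adjusted p 4.6e-08, 6.51e-07 and 3.04e-07), the 3F call lost with the mean of its probe sets. Lifr, the LIF receptor, changed differently between lines, with a difference of changes of -2.10 for 4F against R1 (adjusted p 0.00529) and -2.27 for 4F against 3F (adjusted p 0.00202). The first was not called with only the 12 arrays compared. Lifr fell by 1.25 in 4F (adjusted p 0.00306) and rose by 1.02 in 3F (adjusted p 0.00881), and both calls were lost with the mean of its probe sets. Jak2, the kinase bound to the receptor, rose by 1.73 in R1 (adjusted p 0.000261) and was 1.71 lower in 4F than in 3F at day 5 (adjusted p 0.000856).

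Immediate early genes answer, like Klf4 and Myc, to serum and handling. Of 11, 8 fell in R1 from day 0 to day 5 (7 to 10), 10 in 3F (9 to 10) and 8 in 4F (7 to 9), where 8.1%, 7.4% and 4.82% of all genes were called lower. In R1 1 gene rose, Jun, by 1.19 (adjusted p 0.00211), a call lost without replicate 2 of day 0 or replicate 3 of day 5. Fos fell by 2.57, 3.04 and 3.50 in the 3 lines (adjusted p 2.65e-06, 2.6e-07 and 1.16e-07). Egr2 fell by 2.15, 2.63 and 1.87 (adjusted p 0.00015, 1.83e-05 and 0.00138) and Dusp1, a phosphatase, by 2.04, 2.70 and 1.81 (adjusted p 4.37e-08, 6.36e-10 and 5.6e-07). At day 5, 2 of the 11 were lower in 4F than in R1 (1 to 2) and 2 were lower than in 3F (1 to 2), where 3.14% and 4.57% of all genes were. The medians of the list in these comparisons were -0.05 and -0.14. Jun was lower in 4F than in R1 by 1.96 (adjusted p 0.000101) and than in 3F by 1.97 (adjusted p 4.51e-05). Of the 12 fibroblast and feeder markers, 8 fell over the same interval in R1 (8 to 9), where 1 (0 to 1), Pdgfrb, rose by 2.40 (adjusted p 0.00649), 10 fell in 3F (10) and 11 in 4F (10 to 12), and the part of feeder RNA in the day 0 level of Klf4 and of these genes was not tested. At day 0, 4 of the 12 feeder markers were higher in 3F than in R1 (1 to 7) and 1 was higher in 4F than in R1 (1 to 2). Between 4F and 3F, 1 of 12 was lower in 4F (1 to 9). In these comparisons at day 0, in this order, 3.09%, 1.12% and 1.98% of all genes were called in either direction.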

How the data were processed

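RNA of 27 samples (3 lines, 3 days, 3 biological replicates) was hybridised to Affymetrix mouse arrays. The authors' deposited values are log2 signals made with RMA, per the submitters' processing notes, whose version is not given in the sources used here. They were used as deposited. The labels do not say how separate the biological replicates were, so p-values measure the spread between these samples.

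Of 45101 probe sets, 34945 had a single symbol, giving 18193 genes, each represented by its brightest probe set (highest mean over all arrays). limma 3.58.1 (R 4.3.3) was fitted with 1 mean per group over all 27 arrays (18 residual degrees of freedom), with Benjamini-Hochberg adjustment over 18193 genes in each of 24 comparisons. The script was tested on simulated data. Up to 4 genes with the largest change were named per list and comparison, and Tbx3, Lifr, Tcl1, Dusp1 and Max were also named outside this rule after their values were seen. The genes, lists and tests were chosen with earlier results of these data known. Alternatives were array centring, quantile and loess scaling, the mean over probe sets, a filter on dim genes, the 3′ to 5′ gap as a covariate, a replicate block, only the compared arrays, and each array left out. The number of arrays limits the precision.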

Additional observations from a re-analysis of the deposited data

Results flagged for a closer look

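The change of Klf2 from day 0 to day 5 differed between lines by a test of the difference itself, by 2.73 log2 units between 4F and R1 (adjusted p 0.0121, limma) and by 2.83 between 4F and 3F (adjusted p 0.00844). The change of Myc over the same interval differed by -1.55 between 4F and R1 (adjusted p 0.00194) and by -1.83 between 4F and 3F (adjusted p 0.000376). Both 4F comparisons share the 6 arrays of 4F.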

How the results depend on the processing

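Of 48 calls of the 5 genes, 26 kept their direction and their call under every alternative, among them the 4 differences in change of Klf2 and Myc at day 5 (Klf2 2.29 to 3.29 and 2.52 to 3.15, Myc -1.82 to -1.35 and -1.98 to -1.57). The number of the 5 genes called moved by over 1.5 times in the following cases, and by at most 1 gene in the others. With quantile normalization it was 3 in 3F from day 0 to 11 and 1 in 4F from day 0 to 5. With cyclic loess it was 3 in 3F from day 0 to 11 and 1 for the change to day 11 between 4F and 3F. With the mean over probe sets it was 3 in R1 from day 0 to 5, 1 in R1 from day 5 to 11, 1 in 4F from day 0 to 5 and 2 between 4F and R1 at day 5. With the 3′ to 5′ gap as a covariate it was 4 in R1 from day 5 to 11, 3 in 3F from day 0 to 11, in 4F 1 from day 0 to 5, 1 from day 0 to 11 and 2 from day 5 to 11, and 1 between 4F and R1 and 1 between 4F and 3F at day 11. With only the compared arrays it was 0 between 4F and R1 at day 0.

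Leaving out 1 array gave 3 to 5 in R1 from day 0 to 5, 1 to 2 in 4F from day 0 to 5, 0 to 2 between 4F and R1 at day 0, 1 to 4 between 4F and R1 at day 5, and 0 to 1 between 3F and R1 at day 0, 4F and 3F at day 0, 4F and R1 at day 11 and for each of the 3 changes to day 11. Klf5 from day 5 to 11 in 4F reversed to 0.16 with the mean of its probe sets (adjusted p 0.378). With the gap as a covariate, Lifr (0.20), Cad (0.10), Junb (0.00) and Egr1 (0.23) reversed in 4F from day 0 to 11, Klf9 (0.13) in 4F from day 5 to 11, and Klf13 (0.10) and Stat3 (0.11) between 4F and 3F at day 11. The cause was not tested.

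The labels give replicate numbers and no pairing, and same-numbered arrays deviated together in all 3 pairs in 3 of 18 comparisons. The replicate block changed no call of the 5 genes (Klf4 in 4F against R1 at day 0, 1.38 with adjusted p 0.0157). Counts over all genes moved by over 1.5 times with the covariate (3F against R1 at day 0 193, 4F against 3F at day 11 1105, change to day 5 of 3F against R1 447, changes to day 11 of 3F and 4F against R1 728 and 246), with the mean of probe sets (3F against R1 331 at day 0 and 44 at day 5), and with only the compared arrays (4F against R1 at day 0 134, 3F against R1 at day 11 10, 4F against 3F at day 11 840, changes to day 5 172, 399 and 964, change to day 11 of 3F against R1 80). Leaving out 1 array also moved counts between lines, to 193 to 1179 for 3F against R1 at day 0 (562 with all arrays), 115 to 512 at day 11 (185), 101 to 1264 for its change to day 11 (272), 131 to 449 for 4F against R1 at day 0 (204) and 294 to 1209 for its change to day 5 (663), and other comparisons between lines moved too. Without the 2-fold limit the counts were 75 to 8693, against 68 to 4294 with it.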
